A study of Mus musculus with 6 samples.

Results

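The genes described here make, recycle and regulate tetrahydrobiopterin, a pterin cofactor built from GTP. All 7 genes of the set were measured, among 22180 genes with a probe of their own. They are Gch1, Pts and Spr for synthesis, Pcbd1, Pcbd2 and Qdpr for recycling, and Gchfr for feedback. Each was read by 1 probe, and none of the 7 shared a further probe with another gene. The set was drawn up with earlier results of these arrays in view, in which Pcbd1 had one of the largest rises, and each probe was chosen by the highest mean over the 6 arrays. The difference of Pcbd1 is therefore given as a description, with no test.

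Mouse hearts on a mixed C57BL/6 x 129S6 background were profiled on 6 Affymetrix arrays. The 3 control samples carried Nkx2.5-Cre, which expresses Cre under Nkx2-5 in early heart cells and marks their progeny. The 3 transgenic samples carried Nkx2.5-Cre and R26R-miR302-367, a Cre-dependent copy of the miR-302/367 microRNA cluster at the Rosa26 locus, so all 6 hearts carried the Cre. The labels place the hearts at postnatal day 14 in the source name and harvest protocol, and at E14 in the age field. They do not say whether replicates came from separate animals, so each p-value reflects only the scatter of these samples, part of which may be technical. Precision is limited by having 6 arrays. In whole hearts, fewer cells of a type and less RNA per cell cannot be told apart. Each array had a median log2 value between 5.45 and 5.54. On every transgenic array the 5 probes for cluster microRNAs exceeded all controls, and the group means differed by 2.99 (Mir302b) to 6.61 (Mir302c) on the log2 scale. The 8 cardiomyocyte markers, Myh6 and Tnnt2 among them, were bright on all arrays, with a mean log2 value of 12.26 to 12.35 in control and 12.29 to 12.32 in transgenic hearts.

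Synthesis of the cofactor begins with GTP cyclohydrolase, the product of Gch1, whose activity usually sets the rate. Pts and Spr encode the enzymes that turn its product into tetrahydrobiopterin. Aromatic amino acid hydroxylases, nitric oxide synthases and alkylglycerol monooxygenase use the cofactor. The hydroxylases leave it as a carbinolamine, from which Pcbd1 or its paralog Pcbd2 removes water before the dihydropteridine reductase Qdpr restores the reduced form. Gchfr binds GTP cyclohydrolase and passes on feedback by tetrahydrobiopterin.

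MicroRNAs of the cluster are shown here because their overexpression defines the transgenic group. Mature sequences of the 3p arm are given as listed by RefSeq on build GRCm38.p6, 5′ to 3′, with the seed (bases 2 to 8) in capitals. Sites for these seeds in the 7 genes were not analysed here.
mmu-miR-302b-3p: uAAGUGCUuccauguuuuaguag
mmu-miR-302d-3p: uAAGUGCUuccauguuugagugu
mmu-miR-302c-3p: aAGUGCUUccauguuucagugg
mmu-miR-367-3p: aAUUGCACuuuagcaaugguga
The first and second share a seed. As RefSeq lists it, miR-302c-3p starts a base later in the same stretch, which shifts its seed, and miR-367-3p has a different one.

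Pcbd1 stood apart from every other member. Its log2 values were 7.24, 6.94 and 6.66 in control hearts and 9.71, 9.36 and 9.50 in transgenic hearts. The lowest transgenic value lay far above the highest control value. The group means were 6.95 ± 0.29 and 9.52 ± 0.18 (SD, n = 3 each), a difference of 2.58 on the log2 scale, or 5.97-fold. By absolute size this was the 10th largest difference of the 22180 genes. Leaving out any 1 array gave differences from 2.43 to 2.72.

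**Figure D1:**
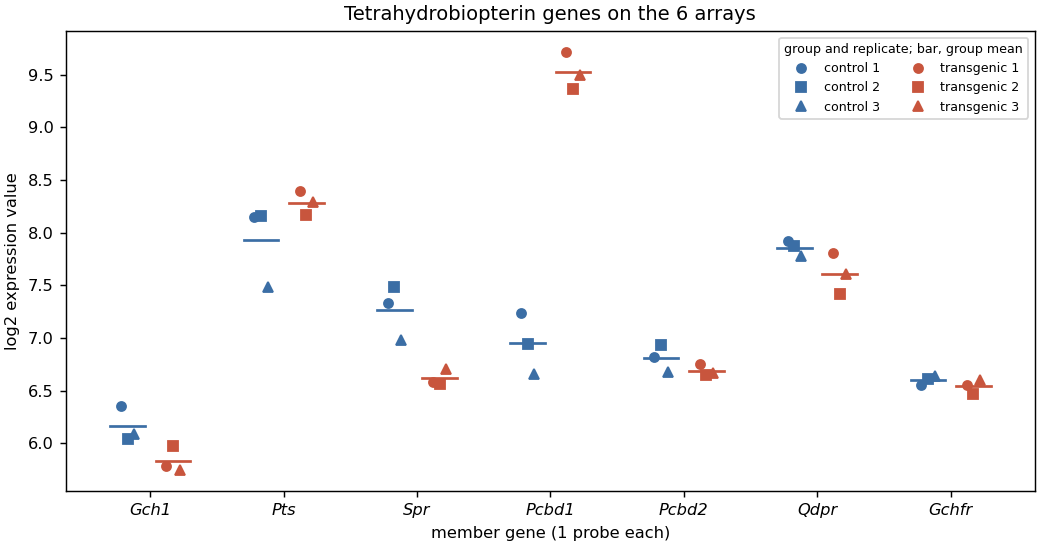
Log2 expression values of the 7 tetrahydrobiopterin genes (vertical axis) on the 3 control and 3 transgenic arrays, with a symbol per replicate and a bar at each group mean. The Pcbd1 groups lie 2.58 apart, while the group means of each other gene lie 0.65 or less apart.

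The paralog Pcbd2, which can carry out the same dehydration step, did not share this difference. Its values were 6.82, 6.93 and 6.68 in control and 6.75, 6.65 and 6.66 in transgenic hearts, and the groups overlapped. The difference was -0.12 (95% interval -0.34 to 0.09; limma adjusted p = 0.4812). Qdpr, which completes recycling, had values of 7.92, 7.87 and 7.77 in control and 7.80, 7.42 and 7.61 in transgenic hearts. Transgenic 1 lay inside the control range and the other two below it. The difference of Qdpr was -0.25 (95% interval -0.50 to 0.0070; adjusted p = 0.2093).

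Among the synthesis genes, Spr, the sepiapterin reductase that catalyses the last step, was lower in transgenic hearts. Its values were 7.33, 7.49 and 6.98 in control and 6.58, 6.56 and 6.70 in transgenic hearts. The groups did not overlap, although control 3 came within 0.28 of transgenic 3. Spr fell from 7.27 ± 0.26 to 6.61 ± 0.078 (SD, n = 3 each), a difference of -0.65 on the log2 scale with an SE of 0.13 (limma adjusted p = 0.01531), or 1.57-fold. Spr no longer passed when control 1 (difference -0.62, adjusted p = 0.05800), transgenic 1 (-0.63, 0.06188) or transgenic 2 (-0.63, 0.06464) was left out.

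Gch1, the entry enzyme, was lower on all 3 transgenic arrays without passing the test. Its values were 6.36, 6.04 and 6.09 in control and 5.78, 5.97 and 5.75 in transgenic hearts. The groups did not overlap, and transgenic 2 lay close to control 2. The difference was -0.33 (95% interval -0.58 to -0.076; adjusted p = 0.09943). It passed with renewed quantile normalization (-0.39, adjusted p = 0.04716) and with array weights (-0.39, adjusted p = 0.04615), out of 15 alternatives whose adjusted p reached 0.2604.

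Pts, the synthase of the middle step, had the opposite sign. Its values were 8.14, 8.16 and 7.48 in control and 8.40, 8.17 and 8.29 in transgenic hearts. Control 3 stood well below the other 5 arrays, and control 2 came within 0.0081 of transgenic 2. The difference was 0.36 (95% interval -0.04 to 0.75; adjusted p = 0.2468) and was 0.13 without control 3 (adjusted p = 0.4593). Control 3 also gave the lowest control value of Spr, Pcbd1, Pcbd2 and Qdpr, but not of Gch1 or Gchfr.

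The feedback regulator Gchfr was the most even member. Its values were 6.55, 6.61 and 6.64 in control and 6.55, 6.47 and 6.60 in transgenic hearts, with overlapping groups. The difference was -0.06 (95% interval -0.25 to 0.13; adjusted p = 0.7071).

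Apart from Pcbd1, 1 of 6 members passed the test, Spr, and it fell. Over all genes 11.1% passed, 5.35% upward and 5.76% downward. With 6 genes, 1 call is close to that background. The groups did not overlap for 3 of the 6, namely Spr and Gch1 on the lower side and Pts on the higher, against 30.9% of all genes (16.7% on the lower and 14.2% on the higher side). The median difference of the 6 was -0.18, and that of all genes -0.03. No member was among the dimmest genes, here the lowest 0.333 of all genes by mean log2 value.

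**Figure D2:**
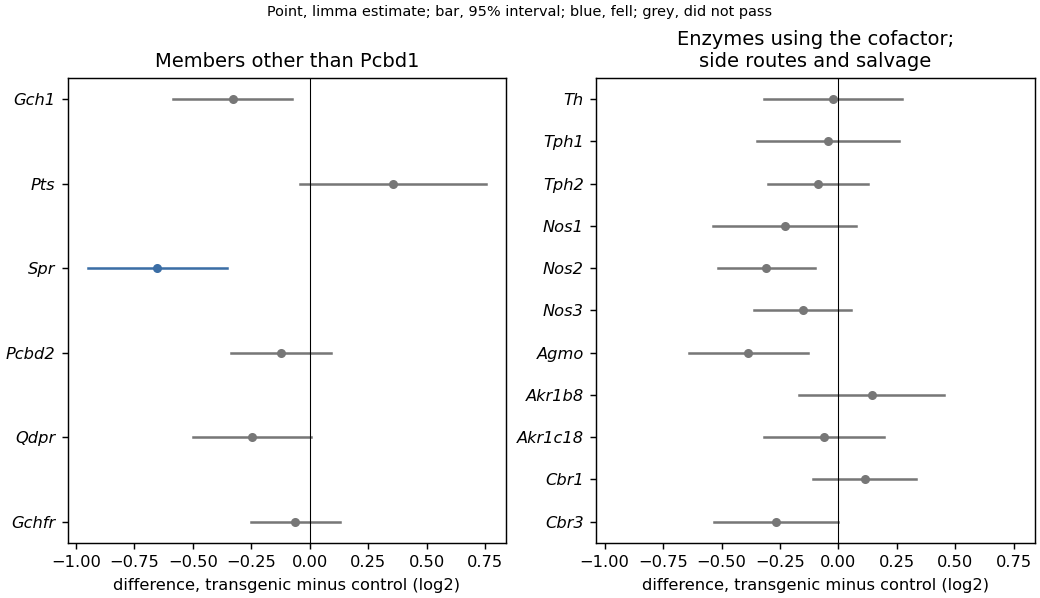
Differences between transgenic and control hearts on the log2 scale (horizontal axis) with 95% intervals, for the 6 members other than Pcbd1 (left) and for the enzymes that use the cofactor with the side-route genes (right). The interval of Spr runs from -0.95 to -0.35, and all 7 measured cofactor-dependent enzymes have estimates below 0. The median of all genes is also below 0, at -0.03, and Th, Tph1 and Tph2 are among the dimmest genes.

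Enzymes that depend on tetrahydrobiopterin were listed next to its own genes. Of 7 measured, 0 rose and 0 fell by limma with adjustment over all genes, and 2 had an unadjusted p under 0.05. Over all genes 11.1% passed, so 0 calls among 7 genes are close to that background. All 7 estimates were below 0, with a median of -0.15. The median of all genes was also below 0, at -0.03, and the estimate of Th lay above it. Agmo, the alkylglycerol monooxygenase, had values of 5.69, 5.78 and 5.62 in control and 5.21, 5.19 and 5.53 in transgenic hearts, a difference of -0.39 (adjusted p = 0.06144). Nos2, the inducible nitric oxide synthase, had 6.73, 6.78 and 6.70 in control and 6.32, 6.42 and 6.55 in transgenic hearts, a difference of -0.31 (adjusted p = 0.0646). The groups did not overlap for 3 of the 7, namely Agmo, Nos2 and Nos3, all on the lower side. This compares with 30.9% of all genes (16.7% on the lower side). Agmo and Nos2 each passed in 3 of 15 alternatives. Agmo passed without the dimmest genes (adjusted p = 0.0402), with array weights (0.0464) and without transgenic 3 (0.0289), and its adjusted p reached 0.197. Nos2 passed without the dimmest genes (adjusted p = 0.0389), with array weights (0.0491) and with repeated quantile normalization (0.0265), and its adjusted p reached 0.204. Nos3, the endothelial synthase, differed by -0.15 (95% interval -0.36 to 0.06; adjusted p = 0.3515) and Nos1, the neuronal synthase, by -0.23 (95% interval -0.53 to 0.08; adjusted p = 0.3418). Th, Tph1 and Tph2, the tyrosine and tryptophan hydroxylases, were among the dimmest genes, with differences from -0.09 to -0.02. The signs of Th and Tph1 changed under some alternatives.

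Markers of cell types that can express Gch1 and the synthases moved as well. For comparison, 5.35% of all genes rose and 5.76% fell. Of 12 endothelial markers, such as Pecam1, 8 fell and 0 rose, and their mean log2 value ranged from 9.09 to 9.23 over control and 8.70 to 8.82 over transgenic arrays. Of 10 macrophage markers, such as Csf1r, 7 fell and 0 rose, with 7.20 to 7.32 in control and 6.53 to 6.73 in transgenic hearts. Their part in the values of Gch1, Spr, Agmo and the synthases was not tested. Cardiomyocyte markers had 0 calls by limma among 8, with 2 at an unadjusted p under 0.05 and a median difference of -0.02. Of 8 fibroblast markers 1 rose and 0 fell, of 5 smooth muscle markers 1 rose and 1 fell, and of 2 measured Schwann cell markers both fell. Sympathetic neuron and mast cell markers had 0 calls by limma, among 5 and 6 measured, with 0 and 1 at an unadjusted p under 0.05.

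Genes upstream and beside the pathway had no calls by limma, against 11.1% of all genes. With lists this short, 0 calls are close to that share. Of 6 measured genes of GTP supply, such as Gmps, 0 passed by limma, and the median difference was -0.12. The groups did not overlap for 5 of these 6, with 2 higher and 3 lower in transgenic hearts, against 30.9% of all genes. Of 4 measured side-route genes, which can reduce pterin intermediates in place of Spr, 0 passed, and the carbonyl reductase Cbr1 differed by 0.11 (95% interval -0.11 to 0.33). At an unadjusted p under 0.05 these lists held 3 and 1 genes. Of 4 genes of tyrosine breakdown 0 passed, with 0 at an unadjusted p under 0.05 and a median of -0.09.

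Nitric oxide signalling, the main known use of the cofactor in vessel walls, had calls on both sides. Of 16 measured genes 2 rose, 2 fell and 12 did not pass, with a median of -0.04. The shares over all genes were 5.35% upward and 5.76% downward. Hsp90aa1, a chaperone that binds nitric oxide synthase, rose by 0.56 (adjusted p = 0.005529), and Prkg1, the cGMP-dependent kinase, rose by 0.42 (adjusted p = 0.0171). Ddah1, which breaks down an endogenous inhibitor of the synthases, fell by 0.47 (adjusted p = 0.01538). Gucy1b1, a subunit of the nitric oxide receptor, fell by 0.46 (adjusted p = 0.02762), and its partner Gucy1a1 had a difference of -0.40 without passing (adjusted p = 0.1460). Leaving out 1 array ended the call of Prkg1 in 5 of 6 cases (all but control 3), of Gucy1b1 in 5 of 6 (all but control 3), and of Ddah1 without transgenic 1 or transgenic 2, with adjusted p-values up to 0.07305, 0.1047 and 0.06701.

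Among genes of catecholamine handling, 1 rose, 1 fell and 5 did not pass, against 5.35% upward and 5.76% downward over all genes. Ddc, the decarboxylase that follows the tetrahydrobiopterin-dependent hydroxylases in dopamine and serotonin synthesis, had values of 6.97, 6.90 and 6.95 in control and 8.28, 8.06 and 7.99 in transgenic hearts. The groups were well apart. The rise of Ddc was 1.18 with an SE of 0.099 (adjusted p = 0.000331), and it passed in all 15 alternatives. The hydroxylase that supplies its substrate, Th, had no such difference (-0.02, 95% interval -0.32 to 0.27). Maob, a monoamine oxidase, fell from 8.36, 8.29 and 8.33 in control to 7.46, 7.46 and 7.66 in transgenic hearts, a difference of -0.80 (SE 0.091, adjusted p = 0.001256). Its relative Maoa had a difference of 0.48 (adjusted p = 0.05527), with all 3 transgenic values above the controls, as for 14.2% of all genes.

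**Figure D3:**
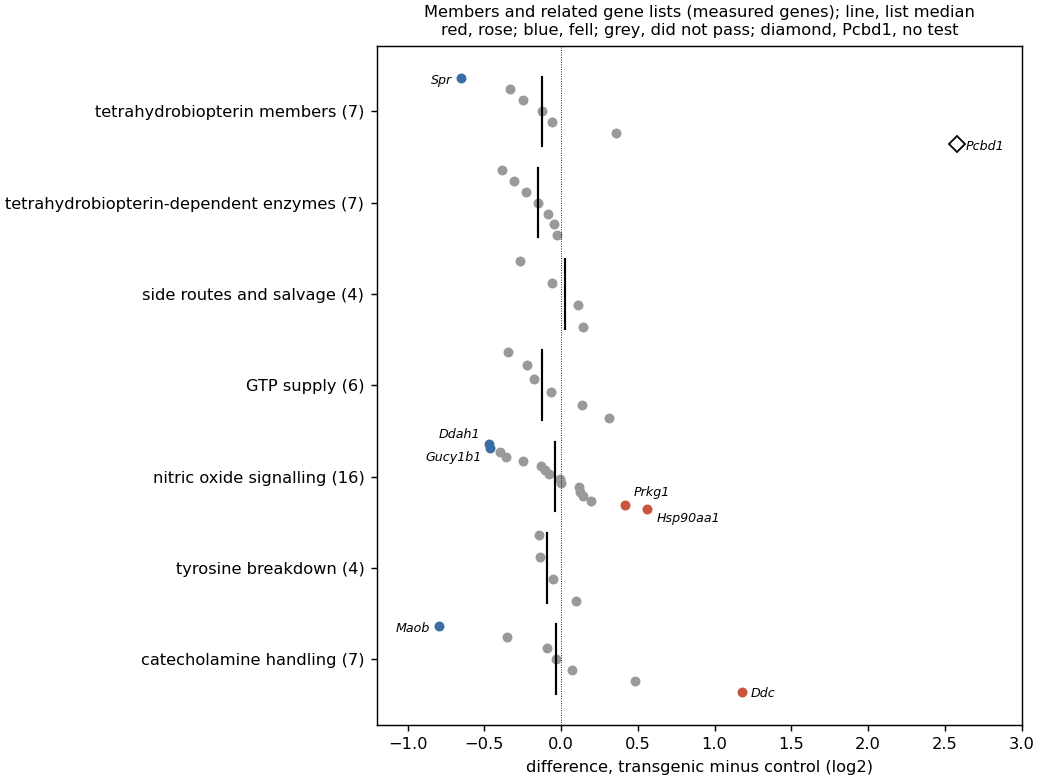
Difference between transgenic and control hearts on the log2 scale (horizontal axis) for each measured gene of the 7 members and 6 related lists (rows, number of genes in brackets), with a line at the list median. Pcbd1, at 2.58, lies beyond every gene of the related lists, whose values run from -0.80 to 1.18.

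Liver genes were listed because hepatocytes hold much Pcbd1. Of 5 measured hepatocyte markers 1 rose and 0 fell, against 5.35% upward and 5.76% downward over all genes. Their median was -0.00072, and 3 were among the dimmest genes. Ttr, transthyretin, had values of 5.68, 5.80 and 5.95 in control and 6.07, 6.43 and 6.38 in transgenic hearts and rose by 0.48 (adjusted p = 0.03739). Ttr did not pass when control 1 (adjusted p = 0.1191), control 2 (0.08115), transgenic 2 (0.1337) or transgenic 3 (0.1172) was omitted. Alb, albumin, had 4.54, 4.66 and 4.67 in control and 4.63, 4.77 and 7.01 in transgenic hearts, so that only transgenic 3 stood high. The remaining markers, Apoa1, Apoh and Serpina1a, had differences of -0.056, -0.00072 and -0.062, and their groups overlapped. The part of liver markers in the Pcbd1 values was not tested.

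The measured neighbours of Pcbd1 had differences near 0, though some of them were dim. The 7 members lie on 7 different chromosomes of the RefSeq annotation (assembly GRCm38.p6), Pcbd1 on chromosome 10. Taking the nearest 2 genes with a probe of their own on each side of Pcbd1, in chromosome order, Pldi differed by -0.10, Gm20611 by -0.0047, Sgpl1, the sphingosine phosphate lyase, by 0.03, and Tbata by -0.14. Of these 4, 0 passed by limma, and 0 had an unadjusted p under 0.05. Pldi and Gm20611 were among the dimmest genes, with mean log2 values of 4.70 and 4.32. Their differences therefore cannot show where a change ends. The means of Tbata and Sgpl1 were 5.36 and 7.28. The 95% interval of Sgpl1, the next gene after Pcbd1, was -0.15 to 0.21. Around all 7 members, 3 of 28 neighbours rose and 0 fell, against 11.1% of all genes that passed in either direction (5.35% upward). The 3 that rose were chosen for mention after their values were seen. They are Ncam1 near Pts (2.03, adjusted p = 0.0003607), Wdhd1 beside Gch1 (0.77, 0.007345) and Knl1 near Gchfr (0.71, 0.004850). Spr lies on chromosome 6, which also holds Rosa26, and 0 of its 4 neighbours passed.

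**Figure D4:**
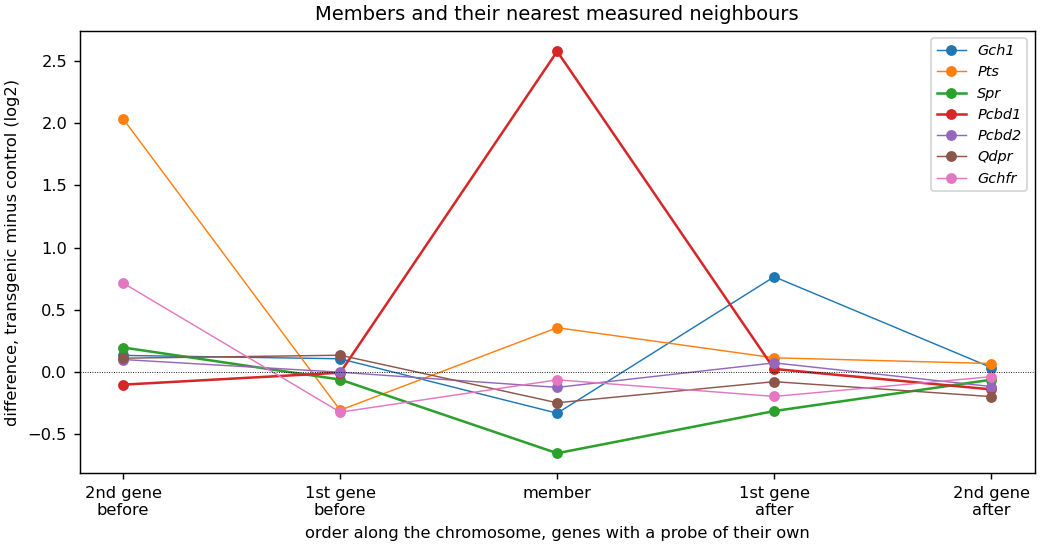
Difference between transgenic and control hearts on the log2 scale (vertical axis) for each member and its nearest 2 measured genes on each side, in chromosome order (horizontal axis, not to distance). The 4 neighbours of Pcbd1 lie between -0.14 and 0.03, while Pcbd1 lies at 2.58. Of these neighbours, Pldi and Gm20611 were among the dimmest genes.

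The start regions of the members were compared because the 2 genes with the largest differences moved in opposite directions. RefSeq windows of GRCm38.p6, from 250 bases before to 50 after the start, were found for all 7. That of Pcbd1 (chr10:61089081-61089380, plus strand) and that of Spr (chr6:85137715-85138014, minus strand) are shown with their GC boxes in capitals, each 5′ to 3′ along the gene.
Pcbd1: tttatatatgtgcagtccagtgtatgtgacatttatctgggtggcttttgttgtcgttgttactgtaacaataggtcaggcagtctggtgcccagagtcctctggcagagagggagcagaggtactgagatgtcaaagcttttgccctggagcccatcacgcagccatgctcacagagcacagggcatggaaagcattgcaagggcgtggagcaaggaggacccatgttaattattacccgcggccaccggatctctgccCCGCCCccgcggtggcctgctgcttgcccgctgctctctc
Spr: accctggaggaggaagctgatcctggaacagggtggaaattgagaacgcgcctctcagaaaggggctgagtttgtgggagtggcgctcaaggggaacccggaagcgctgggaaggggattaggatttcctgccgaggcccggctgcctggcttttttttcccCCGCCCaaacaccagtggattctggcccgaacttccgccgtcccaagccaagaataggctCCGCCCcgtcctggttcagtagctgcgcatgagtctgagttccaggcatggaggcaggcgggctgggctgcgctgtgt
A GC box (GGGCGG, either strand) was present in 6 of 7 members, all but Pcbd2, and in 35.7% of all windows. CCAAT, on either strand, was found in 3 members (37.4% of all windows), TATAAA in 2 (13.6%), and the palindrome CACGTG in 0 (7.15%). The Pcbd1 window was the poorest in CpG among the 7, with 10 against 16 to 36 in the others and a median of 7 over all windows. These matches describe letters in the windows and show no binding.

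The genes whose log2 values over the 6 arrays had the highest Pearson correlation with Pcbd1 were Pdk3, a pyruvate dehydrogenase kinase, Acsl4, a long-chain acyl-CoA synthetase, Serf1, Mospd1 and Bex4, each at 0.997 to 0.999. Bex4 was at 4.22, 4.04 and 4.02 in control and 5.73, 5.62 and 5.60 in transgenic hearts, a difference of 1.56 that was 0.85 with the mean of its probes. The lowest were Lingo3 and Rhobtb1, both at -0.998. With 2 groups of 3 arrays, such values mostly repeat the difference between groups, and 551 genes had a correlation of at least 0.95. Among the members the correlation with Pcbd1 was 0.70 for Pts, and from -0.86 for Spr to -0.52 for Pcbd2 among the others.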

How the data were processed

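Heart RNA of 6 mouse samples was measured on Affymetrix arrays. From 100 ng of RNA, poly(T)-primed cDNA was amplified and biotinylated, per the labels' protocols. The authors deposited a log2 value for each probe on each array. Tools listed in the submitters' processing notes are limma, RMA and oligo, with no version. How background was corrected or probes were filtered is not given in the sources used here. Of 41345 probes, 23521 had 1 gene symbol in the platform annotation, 1814 had several and 16010 had none. Only the first kind was named. For the 1082 genes with several probes the brightest by mean over the 6 arrays was taken, which left 22180 genes. Gene identifiers of 21994 were found in RefSeq (GRCm38.p6), through which 3 older symbols of the lists were updated.

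The comparison used lmFit and eBayes of limma 3.58.1 (R 4.3.3), with Benjamini-Hochberg adjustment over all genes, a threshold of 0.05 and no filter on dim genes. Differences are transgenic minus control. Members and lists were chosen with earlier results of these data known. Named were all members, called genes of the related lists, the cofactor-dependent enzymes and the neighbours of Pcbd1. So were the 5 genes with the highest and the 2 with the lowest (most negative) correlation with Pcbd1, passing over symbols of unnamed genes. Maoa, Gucy1a1, Cbr1, Gmps, the example markers and neighbours of other members were picked with their values known. The limma comparison was first run on simulated data, and the other steps were not. Alternatives covered the filter, probe choice, normalization, variance model, array weights, the replicate number, an Xist term for sex, and each array left out. Xist lay above the middle of its range in control 2, transgenic 1 and transgenic 3 only, so the groups were not matched on it. A planned list and a list member are not reported here. Replicate numbers did not pair the samples.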

Additional observations from a re-analysis of the deposited data

How the results depend on the processing

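Spr kept its sign in all 15 alternatives (-0.80 to -0.54) and passed in 12. Calls among the 6 members other than Pcbd1 numbered 2 after a further quantile normalization and 2 under array weights, where Gch1 joined Spr, and 0 to 1 when an array was left out. The count over all genes was 2465 and ranged from 1171 (without transgenic 2) to 2249 with an array left out. Without control 1, transgenic 1 or transgenic 3 it was 1378, 1217 or 1553. The count was larger without the dimmest genes (3019), with repeated quantile normalization (2812), with array weights (3137) and with a robust intensity-dependent variance model (3168). With every probe on its own it was 2517. It was 2392 with the mean of each gene's probes, 2347 with centred arrays and 1878 with the Xist term. In the main comparison 48.2% of the called genes were higher, against 36.4% after quantile normalization was repeated and 38.1% with centred arrays. The median of all genes stayed between -0.067 and -0.014 in all alternatives.

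Deviations of same-numbered samples correlated at 0.016, -0.13 and 0.014, so they share only a number. The replicate block gave 1996 calls, Spr at an adjusted p = 0.02921, Gch1 at 0.1330 and Gucy1b1, no longer called, at 0.05267. With renewed quantile normalization Ttr was at 0.05097.

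Signs that changed all belonged to uncalled genes near 0. Sgpl1 was at -0.047 after quantile normalization was repeated and -0.011 once arrays were centred. With array weights Th was at 0.0073 and Gm20611 at 0.057, and with the Xist term Th was at 0.0037, Tph1 at 0.069 and Gm20611 at 0.0045. With an array left out Th ranged from -0.12 to 0.080, Tph1 from -0.17 to 0.039 and Gm20611 from -0.083 to 0.046. Th, Tph1, Tph2, Pldi, Gm20611 and Bex4 have no value in the alternative that drops the dimmest genes. No detection calls were used here, so how far dim probes stand above background is unknown.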
